A study of Mus musculus with 4 samples.

Results

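The genes of the antioxidant and glutathione system were followed in 4 infarcted mouse hearts. They comprise the superoxide dismutases, catalase, the peroxiredoxins, the glutathione peroxidases, the enzymes that make and recycle glutathione, the thioredoxin-named genes, the glutathione transferases, the haem oxygenases, Nqo1 and their regulator Nfe2l2. Members were taken by gene symbol alone, and 66 of the 19505 named genes on the array matched, each with 1 probe. A probe here is the array's summarized value for a transcript. The symbol pattern for thioredoxin also takes in 12 genes that share only its name or fold, such as Txnl4a, a component of the splicing machinery, and these are described after the thioredoxins proper. Prdx5, Prdx6 and Gsta1 were not analysed here.

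The hearts came from male mice whose left coronary artery had been ligated at 8 weeks of age, and were collected whole 3 months later. The 2 control hearts (Ctrl-MI) carried Tcf21iCre and the Tomato reporter, and the 2 transgenic hearts (TTg-MI) carried the same alleles together with MGTH2A. Tcf21 is a transcription factor gene of cardiac fibroblasts and epicardial cells, and its promoter is what restricts the Cre to such cells in both groups. From general knowledge, MGTH2A joins the cardiac factors Mef2c, Gata4, Tbx5 and Hand2 in 1 transgene. Mice whose ejection fraction stayed high shortly after ligation had been removed from the study, and there were no hearts without infarction. The design text calls the 2 hearts of a group independent biological replicates.

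Cells use this system to remove the oxidants that respiration and inflammation produce. Superoxide dismutases turn superoxide into hydrogen peroxide, which catalase, the peroxiredoxins and the glutathione peroxidases reduce to water. Glutathione and thioredoxin supply the electrons to the glutathione peroxidases and peroxiredoxins, though not to catalase, and are themselves recharged by reductases. Glutathione transferases couple glutathione to reactive lipids and foreign compounds. NRF2, the product of Nfe2l2, switches on many of these genes when oxidants or electrophiles inactivate its partner KEAP1. In heart muscle the mitochondrial enzymes carry much of this load, and peroxide is also made by the NADPH oxidases of fibroblasts and phagocytes.

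The RNA came from a mixture of cells, in which fewer cells of a type and less RNA per cell cannot be told apart. Array medians lay between 6.55 and 6.62 on the log2 scale. Cardiomyocyte markers were strong on every array, and the log2 of their summed signal lay at 22.56 and 22.74 in Ctrl-MI and at 22.68 and 22.66 in TTg-MI. The TTg-MI mean was higher for 10 of 13 of them, with differences from -1.46 to 0.89. Their median levels of 18.37 to 18.87 came near the arrays' highest values of 19.92 to 19.93, where the scale may flatten, which was not tested. The sums were therefore not taken to show whether muscle content was level. Fibroblast markers had a lower TTg-MI mean for 11 of 11 measured, with summed signals of 19.89 and 19.26 in Ctrl-MI and of 18.97 and 18.47 in TTg-MI. Macrophage markers had a lower TTg-MI mean for 12 of 12, with summed signals of 15.28 and 13.99 against 13.52 and 12.68. The fibroblast marker Cthrc1 and the monocyte receptor gene Ccr2 lay below the lower quartile of 2 arrays, and every other marker in these 2 lists but Cx3cr1 lay above it on all arrays. Of 8 atrial muscle markers 6 had a higher TTg-MI mean. At an unadjusted limma p under 0.05 stood 4 higher and 0 lower, against 3.21% and 5.28% of all named genes. After adjustment 1 was called (Bmp10), and the median log2 difference was 2.60 (0.52 without Ctrl-MI replicate 2). Ctrl-MI replicate 2 was the low array for Myl4 (7.70 against 14.61 to 16.34 on the others), Myl7 and Sln. The summed atrial signal was 20.04 and 19.90 in Ctrl-MI and 20.07 and 18.98 in TTg-MI, so TTg-MI replicate 2 was lowest in sum, and Nppa, within 1 log2 unit of the top of 3 arrays, makes up most of it. The part that these cell mixtures have in the differences below was not tested.

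No member passed the test, and members with a higher TTg-MI mean were about as many as those with a lower one. The test was limma with Benjamini-Hochberg adjustment over all probes. It called 0 of 66 members, and 0.00513% of all named genes (the single gene Bmp10). The smallest adjusted p of a member was 0.546. The TTg-MI mean was higher for 32 members and lower for 34, with a median log2 difference (TTg-MI minus Ctrl-MI) of -0.01, against 0.01 over all named genes. At an unadjusted limma p under 0.05 stood 12 members, 3 higher and 9 lower, or 18.2%, where the share over all named genes was 8.50% (3.21% higher and 5.28% lower). Genes with a strong signal reached that threshold more often. Among those whose mean over the 4 arrays was at or above the median of all values the share was 14.3%, and for the 55 members among them 21.8%.

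The 2 TTg-MI arrays lay above the 2 Ctrl-MI arrays for 13 members and below them for 16, and the arrays overlapped for 37. Such separation held for 43.9% of members and for 38.3% of all named genes (19.2% above and 19.1% below), so it was not much more frequent here. With each array centred on its median the split at an unadjusted limma p under 0.05 was 1 higher and 8 lower, and after quantile normalization 4 and 8. It was 3 and 8 with a trended robust prior and 4 and 9 with a replicate block. Without dim probes it was 1 and 7, and on the mean of a symbol's probes 2 and 9. In these settings 8.13% to 11.4% of all named genes reached that p in either direction. The sign of the difference was the same in all 4 fits that left out an array for 41 of 66 members, or 62.1%, and for 51.9% of all named genes.

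**Figure D1:**
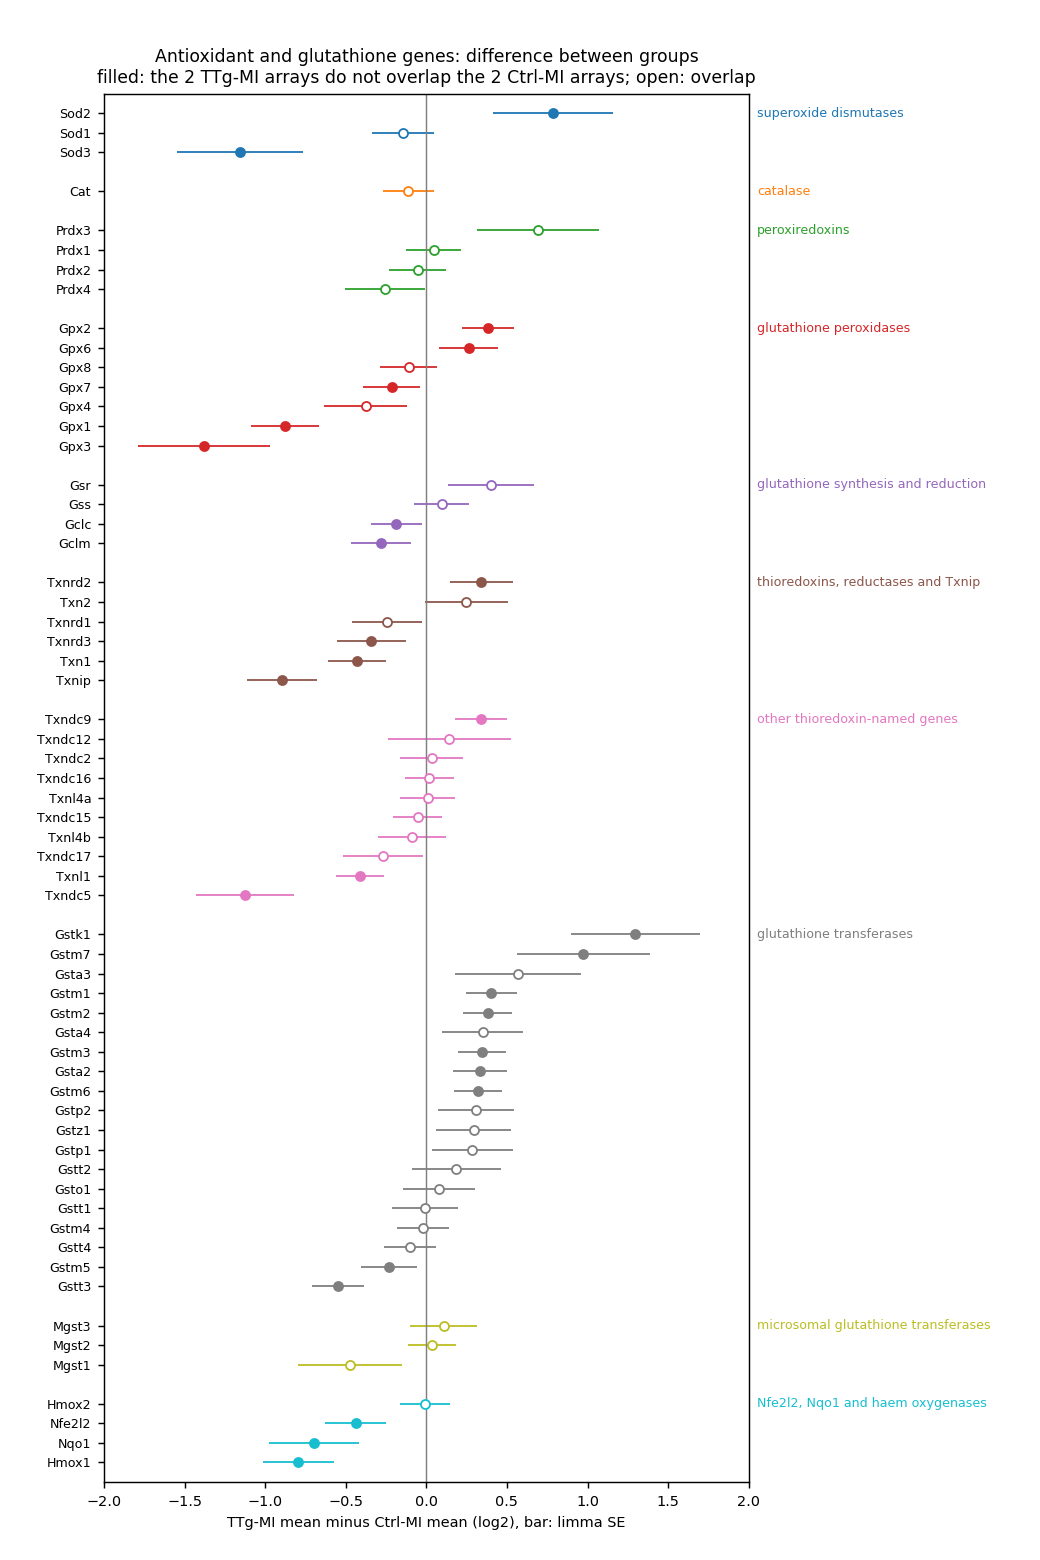
Log2 difference between the TTg-MI and Ctrl-MI means (x axis, bars: limma standard error) for the 61 members that were not under the lower quartile of all 4 arrays, grouped by role. Filled points mark members whose 2 TTg-MI arrays do not overlap the 2 Ctrl-MI arrays, and the differences run from -1.38 for Gpx3 to 1.30 for Gstk1.

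Members below the lower quartile of all 4 arrays (Gpx5, Txndc11, Txndc8, Gsto2 and Gstp3) were not shown to be above background. No difference of their own is given for them, and they stand only in the counts over all 66 members, in the motif counts and where a count says so. Gpx6, Txndc2 and Gsta2 lay so low on 2 or 3 arrays. The other 58 members were above that quartile on every array, and 0 members lay within 1 log2 unit of an array's highest value, where the scale may flatten.

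The superoxide dismutases went different ways. Sod3, the extracellular enzyme that binds to matrix, stood at 10.98 and 10.56 in Ctrl-MI and at 10.18 and 9.05 in TTg-MI. Both TTg-MI arrays were lower, by 1.15 on average (log2 difference -1.15, SE 0.39, limma adjusted p = 0.572), and the difference was -0.59 without TTg-MI replicate 2. Sod2, the manganese enzyme of mitochondria, read 16.03 and 17.16 in Ctrl-MI and 17.33 and 17.42 in TTg-MI. Both TTg-MI arrays were higher (0.78, SE 0.37), but Ctrl-MI replicate 1 made most of the gap, as it was 0.22 without that array. Sod1, the copper and zinc enzyme of the cytosol, overlapped between the groups, at 14.08 and 13.80 against 13.64 and 13.95.

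Catalase, the peroxisomal enzyme that breaks down peroxide without a cofactor to recharge, was close on all arrays. Cat read 17.92 and 17.84 in Ctrl-MI and 17.68 and 17.86 in TTg-MI, with a difference of -0.11 (SE 0.16).

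All 4 peroxiredoxins measured overlapped between the groups. Prdx1 and Prdx2, abundant cytosolic peroxidases that thioredoxin recharges, differed by 0.05 (SE 0.17) and -0.05 (SE 0.18). Prdx3, their mitochondrial counterpart, read 12.16 and 13.25 in Ctrl-MI and 13.19 and 13.60 in TTg-MI. The low value was that of Ctrl-MI replicate 1, and the Prdx3 difference of 0.69 (SE 0.38) was 0.15 without it. Prdx4, the enzyme of the endoplasmic reticulum, differed by -0.26 (SE 0.25).

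Among the 8 glutathione peroxidases, Gpx5 was too dim to read. Of the other 7, the TTg-MI mean was lower for 5, and their median difference was -0.22 (-0.08 without TTg-MI replicate 2). Gpx6, counted among those with a higher mean, was above the lower quartile on TTg-MI replicate 1 alone. Gpx3, the secreted plasma enzyme, read 17.60 and 16.43 in Ctrl-MI and 15.88 and 15.39 in TTg-MI. It had the lowest difference of all members (-1.38, SE 0.41, 2.60-fold lower, limma adjusted p = 0.546). Ctrl-MI replicate 1 was far above the rest, and without it the Gpx3 difference was -0.79.

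Gpx1, the main cytosolic and mitochondrial enzyme, read 13.57 and 13.38 in Ctrl-MI and 12.83 and 12.36 in TTg-MI. Its arrays of a group lay close together, and the groups were apart by 1.84-fold (-0.88, SE 0.21, limma adjusted p = 0.546). Leaving out single arrays gave Gpx1 differences of -0.65 to -1.11. This was the smallest p of any member.

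Gpx4, which reduces oxidized membrane lipids and holds off ferroptosis, read 14.76 and 14.85 in Ctrl-MI and 14.77 and 14.08 in TTg-MI. Only TTg-MI replicate 2 was low, and without it the Gpx4 difference was -0.03. Gpx7, an enzyme of the endoplasmic reticulum, lay lower on both TTg-MI arrays by a small margin (-0.22, SE 0.18), and its relative Gpx8 overlapped (-0.11, SE 0.17). Gpx2, the enzyme of gut epithelium, was slightly higher on both TTg-MI arrays (0.38, SE 0.16), at values of 5.83 to 6.37 that lie under the arrays' medians.

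The steps that make glutathione differed little. Gclc and Gclm encode the catalytic and modifier subunits of glutamate-cysteine ligase, which sets the rate of synthesis. Gclc read 8.71 and 8.52 in Ctrl-MI and 8.38 and 8.48 in TTg-MI, and Gclm read 8.54 and 8.63 against 8.12 and 8.49. Both subunits lay lower on both TTg-MI arrays, with differences of -0.19 (SE 0.16) and -0.28 (SE 0.19) that were less than 2 standard errors. Gss, the synthetase of the second step, differed by 0.09 (SE 0.17). Gsr, the reductase that recharges oxidized glutathione, overlapped, and its difference of 0.40 (SE 0.27) was 0.06 without TTg-MI replicate 2.

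Of the 6 thioredoxins, reductases and Txnip, 3 were lower and 1 higher on both TTg-MI arrays, where the shares over all named genes were 19.1% and 19.2%. Txnip, which binds and inhibits thioredoxin and also limits glucose uptake, read 17.23 and 16.78 in Ctrl-MI and 16.26 and 15.95 in TTg-MI. Both TTg-MI arrays were lower, by 1.86-fold (-0.90, SE 0.22, limma adjusted p = 0.546). The cytosolic thioredoxin Txn1 was lower on both TTg-MI arrays as well, at 13.35 and 13.37 against 13.96 and 13.61 (-0.43, SE 0.18; -0.26 without Ctrl-MI replicate 1).

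The cytosolic thioredoxin reductase Txnrd1 overlapped (-0.24, SE 0.22), and Txnrd3, a reductase best known from testis, was lower on both TTg-MI arrays (-0.34, SE 0.21; -0.09 without Ctrl-MI replicate 2). The mitochondrial reductase Txnrd2 was higher on both, at 11.23 and 11.63 against 11.01 and 11.17 (0.34, SE 0.19). Without TTg-MI replicate 2 that difference was 0.14. Mitochondrial thioredoxin, Txn2, overlapped (0.25, SE 0.26).

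**Figure D2:**
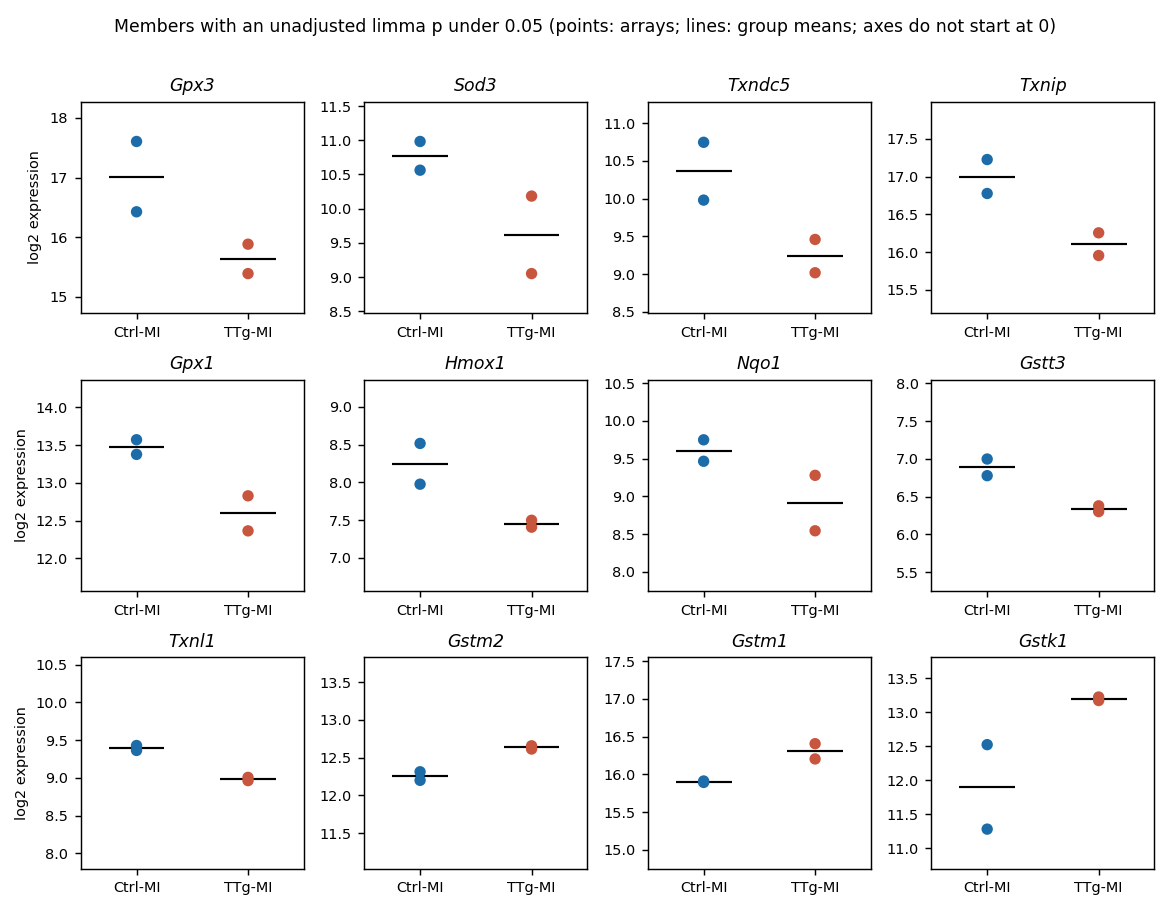
Log2 expression (y axes, not starting at 0) of the 12 members with an unadjusted limma p under 0.05, with a point for each array and a line at each group mean. The groups do not overlap in any panel, 9 members are lower and 3 (Gstm1, Gstm2 and Gstk1) are higher in TTg-MI, and Gstk1 and Gpx3 have the widest gap between their Ctrl-MI arrays.

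Seen by compartment, the 4 members known chiefly from mitochondria (Sod2, Prdx3, Txn2 and Txnrd2) each had a higher TTg-MI mean, with a median of 0.52. Both TTg-MI arrays were above for 2 of them, where the share over all named genes was 19.2%, and the median was 0.19 with Ctrl-MI replicate 1 left out and 0.32 with TTg-MI replicate 2 left out. Gpx1 and Gstk1, which occur in mitochondria and elsewhere, are not among these 4, and they differed by -0.88 and 1.30, so mitochondrial members did not all lie on one side. Of the 10 members of the secretory route (Sod3, Gpx3, Gpx5 to Gpx8, Prdx4, Txndc5, Txndc11 and Txndc12), Gpx5 and Txndc11 were too dim to read. Of the other 8, which include the thioredoxin-named Txndc5 and Txndc12, 6 were lower by mean in TTg-MI, and the median difference was -0.24 (-0.16 and -0.49 when Ctrl-MI replicates 1 and 2 were left out). Gpx6, 1 of the 2 with a higher mean, was above the lower quartile on TTg-MI replicate 1 alone. Its place in these counts is thus no evidence of a difference. The group is uneven, since Sod3, Gpx3 and Txndc5 differed by more than 1 log2 unit and the other 5 by at most 0.26 in size. No test was made of either group or of the contrast between them.

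Along the 4 arrays, Sod3, Gpx1, Gpx3, Txnip, Txndc5 and Hmox1 all ranked the 4 arrays alike, with Ctrl-MI replicate 1 highest, Ctrl-MI replicate 2 next, TTg-MI replicate 1 below it and the other TTg-MI array lowest. The summed fibroblast and macrophage signals given above took the arrays in the same order. This order, looked for after the values were seen, was found in 9.09% of members and 7.03% of all named genes. The opposite order was found for Sod2, Txnrd2, Gstk1, Gstm1, Gstm2 and Gsto2, again 9.09% of members, and in 6.13% of all named genes. Gsto2 among them was too dim to read.

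**Figure D3:**
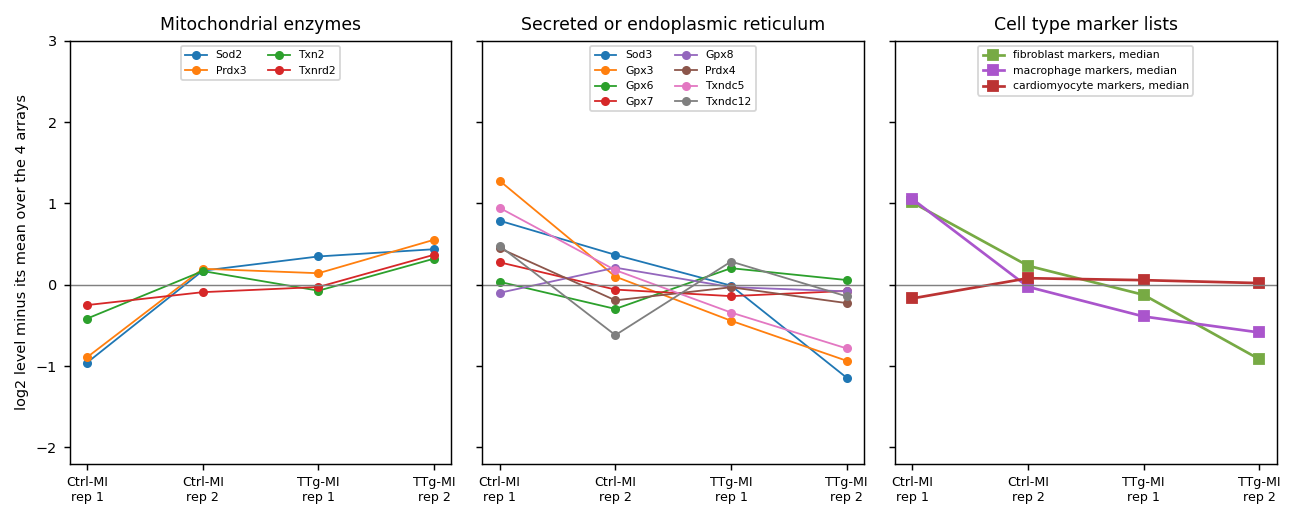
Log2 level on each array minus the mean of the 4 arrays (y axis) for the 4 mitochondrial members, for the 8 secreted or endoplasmic reticulum members that were not under the lower quartile of all arrays, and as a median for 3 lists of cell type markers. Fibroblast markers go from 1.01 on Ctrl-MI replicate 1 to -0.92 on TTg-MI replicate 2, and Gpx3, Sod3 and Txndc5 take the same order while Sod2 takes the opposite one.

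Among the 12 other thioredoxin-named genes, Txndc8 and Txndc11 were too dim to read, and 7 of the other 10 overlapped. Txndc5, a protein disulfide isomerase of the endoplasmic reticulum that helps fold secreted matrix proteins in fibroblasts, stood out in size. It read 10.75 and 9.98 in Ctrl-MI and 9.46 and 9.02 in TTg-MI (-1.12, SE 0.30, 2.18-fold lower, limma adjusted p = 0.546), and -0.74 without Ctrl-MI replicate 1.

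Txnl1, a thioredoxin-like protein of the proteasome, was tightly grouped, at 9.36 and 9.43 against 9.01 and 8.96 (-0.41, SE 0.15, limma adjusted p = 0.588). Txndc9 was higher on both TTg-MI arrays (0.34, SE 0.16). The splicing factors Txnl4a and Txnl4b differed by 0.01 (SE 0.17) and -0.09 (SE 0.21). Txndc12, Txndc15, Txndc16 and Txndc17 overlapped as well, at 0.14, -0.06, 0.02 and -0.27.

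Among the 21 glutathione transferases, Gsto2 and Gstp3 were too dim to read. Of the other 19, the TTg-MI mean was higher for 14, where the share over all named genes was 51.8%, and the median difference was 0.31 (0.14 when Ctrl-MI replicate 1 was left out). Both TTg-MI arrays were above both Ctrl-MI arrays for 7 and below them for 2, where the shares over all named genes were 19.2% and 19.1%. Of those 7, 5 belong to the mu class, whose members may not be separate observations. Outside the mu class 9 of 12 had a higher mean, with both TTg-MI arrays above for 2 (Gstk1 and Gsta2). Their median was 0.29 (0.08 when Ctrl-MI replicate 1 was left out and 0.04 when TTg-MI replicate 2 was). Gsta2 lay under the lower quartile of both Ctrl-MI arrays, at 5.36 and 5.10, and read 5.60 and 5.52 in TTg-MI. It escaped the label of too dim only through the TTg-MI arrays, so its place in these counts is no evidence of a difference.

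Gstk1, the kappa-class enzyme of mitochondria and peroxisomes, had the highest difference of all members. It read 11.28 and 12.53 in Ctrl-MI and 13.18 and 13.23 in TTg-MI, so that the TTg-MI arrays lay together and the Ctrl-MI arrays far apart. The difference was 1.30 (SE 0.40, 2.46-fold higher, limma adjusted p = 0.555), and 0.68 without Ctrl-MI replicate 1.

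The mu class, whose enzymes detoxify electrophiles in the cytosol, forms a run of 7 neighbouring genes on chromosome 3 of the RefSeq annotation, in the order Gstm5, Gstm7, Gstm6, Gstm3, Gstm2, Gstm1 and Gstm4. The 5 in the middle of the run were higher on both TTg-MI arrays. Gstm1 read 15.89 and 15.91 in Ctrl-MI and 16.21 and 16.41 in TTg-MI (0.40, SE 0.16, limma adjusted p = 0.600).

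Gstm2 read 12.20 and 12.31 against 12.62 and 12.66 (0.38, SE 0.15, limma adjusted p = 0.603). Gstm3 and Gstm6 had nearly the same differences as these, 0.35 (SE 0.15) and 0.32 (SE 0.15). The similarity of the 4 differences cannot be read as 4 separate observations, since mu-class transcripts are alike in sequence and oligonucleotides for 1 of them may bind another.

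Gstm7 showed a wider gap, from 9.57 and 10.85 to 11.27 and 11.10 (0.97, SE 0.41), but it was 0.33 without Ctrl-MI replicate 1. At the ends of the run, Gstm5 was lower on both TTg-MI arrays (-0.23, SE 0.18) and Gstm4 overlapped (-0.02, SE 0.16).

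**Figure D4:**
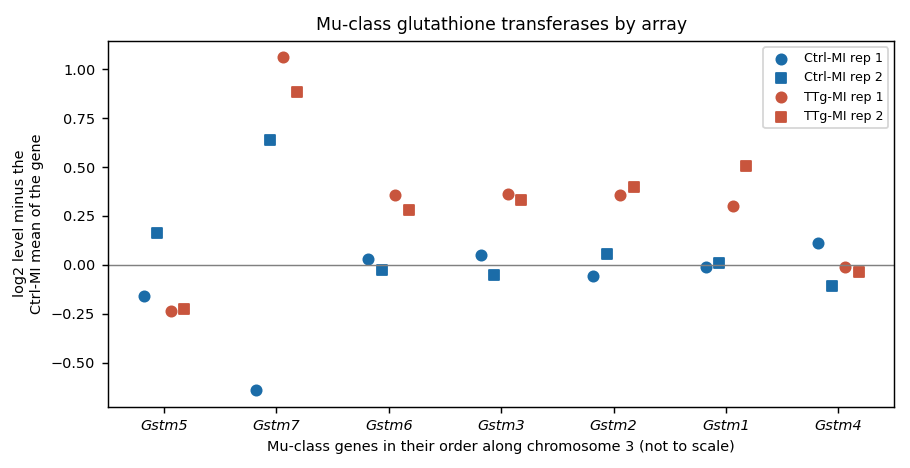
Log2 level of each array minus the gene's Ctrl-MI mean (y axis) for the 7 mu-class transferase genes in their order along chromosome 3 (x axis, not to scale). The TTg-MI points lie above the Ctrl-MI points for Gstm7, Gstm6, Gstm3, Gstm2 and Gstm1, below them for Gstm5 and among them for Gstm4, and Ctrl-MI replicate 1 is far below the rest for Gstm7.

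Of the other classes, the pi-class genes Gstp1 and Gstp2, also near-copies of each other and neighbours of Gstp3 on chromosome 19, overlapped with differences of 0.29 (SE 0.25) and 0.31 (SE 0.23). The alpha-class Gsta4, which clears the lipid peroxidation product hydroxynonenal, overlapped at 0.35 (SE 0.25), as did Gsta3 at 0.57 (SE 0.39). The zeta-class Gstz1 of tyrosine breakdown and the omega-class Gsto1 overlapped too, at 0.29 (SE 0.23) and 0.08 (SE 0.22).

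In the theta class the TTg-MI mean was higher for 1 of 4 genes and lower for 3. Gstt3 read 7.00 and 6.78 in Ctrl-MI and 6.30 and 6.38 in TTg-MI (-0.55, SE 0.16, limma adjusted p = 0.546), lower on both TTg-MI arrays. Its neighbours on chromosome 10, Gstt1, Gstt4 and Gstt2, overlapped, at -0.01, -0.10 and 0.19.

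The microsomal transferases, integral membrane enzymes, overlapped for 3 of 3. Mgst1 differed by -0.47 (SE 0.32), Mgst2 by 0.04 (SE 0.15) and Mgst3 by 0.11 (SE 0.21).

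Nfe2l2 and 2 of its best known targets were lower on both TTg-MI arrays. Nfe2l2 itself read 8.35 and 7.99 in Ctrl-MI and 7.66 and 7.80 in TTg-MI (-0.44, SE 0.19, limma adjusted p = 0.619; -0.26 without Ctrl-MI replicate 1). Hmox1, the inducible haem oxygenase that is strong in macrophages, read 8.52 and 7.98 against 7.50 and 7.41 (-0.79, SE 0.22, limma adjusted p = 0.546). Nqo1, a quinone reductase, read 9.47 and 9.75 against 8.54 and 9.28 (-0.70, SE 0.28, limma adjusted p = 0.604).

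The Hmox1 values were close together in TTg-MI, and its difference was -0.52 without Ctrl-MI replicate 1. The Nqo1 difference was -0.33 without TTg-MI replicate 1, the lowest array. The constitutive haem oxygenase Hmox2 was level, at 12.40 and 12.56 against 12.43 and 12.52 (-0.01, SE 0.16).

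A list of 12 measured textbook NRF2 targets among the members lay on both sides. The TTg-MI mean was higher for 6 and lower for 6, with a median of -0.07 (0.07 without TTg-MI replicate 1). Lower on both TTg-MI arrays were Nqo1, Hmox1, Gclc, Gclm and Txn1, and higher on both was Gstm1. Over all named genes 19.1% were lower and 19.2% higher on both. Prdx1, Txnrd1, Gsr, Gsta3, Gsta4 and Gstp1 overlapped.

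The promoters were searched for the core of the antioxidant response element, the site through which NRF2 acts. The motif TGACNNNGC was looked for on both strands in the 250 bases before each RefSeq gene start (build GRCm38.p6), over every start listed for a gene. Of the 66 members 58 had such a window, and 12 of them (20.7%) held the motif, against 11.5% of all 27025 genes with a window. Gclc, Gsr, Gsta4, Gstt2, Hmox1, Sod3, Txnl1 and Txnl4a had no window and were not searched. A match describes the letters only. Of the 8 textbook targets with a window, Gclm, Prdx1, Txnrd1 and Gsta3 held it, and so did Nfe2l2 and Txndc5. These 6 stretches are shown because they set members that were lower on both TTg-MI arrays (Gclm, Nfe2l2 and Txndc5) beside members that overlapped (Prdx1, Txnrd1 and Gsta3). Each is written 5′ to 3′ on the gene's strand, with the motif in capitals.
Gclm: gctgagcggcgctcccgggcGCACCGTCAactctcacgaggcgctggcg
Nfe2l2: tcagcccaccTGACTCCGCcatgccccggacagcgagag
Txndc5: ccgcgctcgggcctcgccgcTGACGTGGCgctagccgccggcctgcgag
Prdx1: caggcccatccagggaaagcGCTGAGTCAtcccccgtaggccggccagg
Txnrd1: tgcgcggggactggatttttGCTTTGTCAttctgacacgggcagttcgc
Gsta3: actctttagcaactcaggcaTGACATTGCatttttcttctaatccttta

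In GRCm38.p6 these lie at chr3:122245403-122245451 (Gclm, plus strand), chr2:75704875-75704913 (Nfe2l2, minus strand) and chr13:38528024-38528072 (Txndc5, minus strand). The other 3 are at chr4:116685446-116685494 (Prdx1), chr10:82859094-82859142 (Txnrd1) and chr1:21240444-21240492 (Gsta3), all on the plus strand. The motif reads on the gene's strand in Nfe2l2, Txndc5 and Gsta3 and on the opposite strand in the other 3. In Prdx1 it overlaps TGACTCA, the site of AP-1, read on the opposite strand. By the arrays, the motif was present in 4 of 12 members that were lower on both TTg-MI arrays and had a window, in 1 of 13 that were higher on both, and in 7 of 33 that overlapped. The 1 that was higher on both is Gstm7, whose stretch is not among those shown. Gstm5, which held the motif and was lower on both, is not shown either.

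The partners of NRF2 were mixed. Keap1, which holds NRF2 in check, overlapped at 8.36 and 9.02 against 8.44 and 8.95 (0.00, SE 0.29). Mafk, a small Maf protein that pairs with NRF2 on DNA, read 7.92 and 7.45 against 7.04 and 6.51 (-0.91, SE 0.26, limma adjusted p = 0.546). Sqstm1, the autophagy receptor p62 that competes for KEAP1, was also lower on both TTg-MI arrays (-0.67, SE 0.26; -0.40 and -0.44 when replicate 1 of Ctrl-MI or of TTg-MI was left out), and Nfe2l3, a relative of Nfe2l2, was higher on both (0.33, SE 0.15). Of 11 such regulators, 2 were lower and 0 higher at an unadjusted limma p under 0.05, and 0 passed the adjustment. The shares over all named genes at that p were 5.28% lower and 3.21% higher.

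Among 18 measured NRF2 targets that are not members, 3 were lower and 0 higher at an unadjusted limma p under 0.05, and 0 passed the adjustment. At that p stood 5.28% (lower) and 3.21% (higher) of all named genes. Ftl1, the ferritin light chain that stores iron, read 15.07 and 14.07 in Ctrl-MI and 13.26 and 13.16 in TTg-MI (-1.37, SE 0.33), and -0.87 without Ctrl-MI replicate 1. Ugdh, which makes the sugar acid for glucuronides and for hyaluronan, differed by -0.79 (SE 0.19). Srxn1, sulfiredoxin, which repairs over-oxidized peroxiredoxins, read 8.47 and 8.20 against 7.92 and 7.82 (-0.47, SE 0.17). In the list as a whole the TTg-MI mean was higher for 8 and lower for 10. Both TTg-MI arrays were above for 3 and below for 5, where the shares over all named genes were 19.2% and 19.1%. The median of the list was -0.03 (-0.11 without Ctrl-MI replicate 1).

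**Figure D5:**
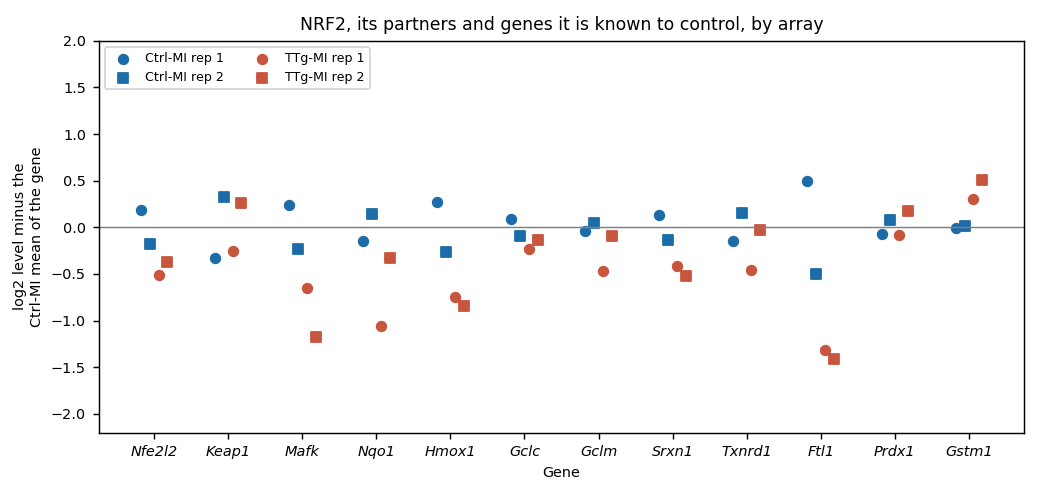
Log2 level of each array minus the gene's Ctrl-MI mean (y axis) for Nfe2l2, its partners Keap1 and Mafk, and some genes NRF2 is known to control. The genes were picked by hand and do not stand for the full lists. Of the textbook targets, Gsr, Gsta3, Gsta4 and Gstp1 (higher TTg-MI mean) and Txn1 (lower) are not shown. Of the 18 targets outside the members, 8 with a higher and 10 with a lower TTg-MI mean, only Ftl1 and Srxn1 are shown. The TTg-MI points lie below the Ctrl-MI points for Nfe2l2, Mafk, Nqo1, Hmox1, Gclc, Gclm, Srxn1 and Ftl1, above them for Gstm1, and among them for Keap1, Txnrd1 and Prdx1.

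Genes that supply, recycle or use glutathione outside the members held the smallest p of the pathway. Glrx, glutaredoxin, which removes glutathione from protein thiols, read 10.55 and 10.80 in Ctrl-MI and 11.72 and 11.62 in TTg-MI. It was 1.99-fold higher, with the arrays of each group close together (0.99, SE 0.17, limma adjusted p = 0.530), and single arrays moved it no further than 0.87 to 1.12. Dpep1, a dipeptidase that splits the breakdown product of glutathione, was lower (-0.74, SE 0.16), as was Slc3a2, the heavy chain shared by several amino acid transporters (-1.18, SE 0.36; -0.63 without Ctrl-MI replicate 1). Of 22 measured, 2 were higher and 3 lower at an unadjusted limma p under 0.05, against 3.21% and 5.28% of all named genes. The adjustment was passed by 0, and the median was 0.08 (-0.07 without Ctrl-MI replicate 1).

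A list of 6 genes was drawn up around glutathione use in prostanoid and leukotriene synthesis (Hpgds, Ptges, Ltc4s, Alox5ap, Ptges2 and Gdap1). Not all of them encode enzymes that use glutathione for that synthesis. Among them Ptges2 was higher on both TTg-MI arrays (0.49, SE 0.19). It was the only 1 of the 6 at an unadjusted limma p under 0.05, against 8.5% of all named genes, and 0 passed the adjustment. Ltc4s, leukotriene C4 synthase, was lower on both (-0.55, SE 0.29; -0.14 without Ctrl-MI replicate 1), and Hpgds, a prostaglandin D synthase, overlapped.

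On the side that produces oxidants, the mean of TTg-MI was below that of Ctrl-MI for 14 of 18 measured genes and above it for 4. Over all named genes 51.8% had a higher TTg-MI mean. The median difference of the 18 was -0.23 (-0.15 without TTg-MI replicate 2). Dim genes are counted here, as 2 lay under the lower quartile of all 4 arrays and only 13 lay above it on every array. Nox4, the oxidase of fibroblasts and muscle, read 7.66 and 6.66 in Ctrl-MI and 6.18 and 6.17 in TTg-MI (-0.99, SE 0.33), and -0.49 without Ctrl-MI replicate 1. Ncf4, a subunit of the phagocyte oxidase, was lower on both TTg-MI arrays (-0.93, SE 0.30), and TTg-MI values of 5.41 and 4.92 lay under those arrays' lower quartiles and may not exceed background. The Ncf4 difference was -0.57 without Ctrl-MI replicate 1. Maob, a mitochondrial monoamine oxidase that releases peroxide, was the exception, at 8.12 and 9.22 against 9.60 and 10.23 (1.24, SE 0.41; 0.69 without Ctrl-MI replicate 1). At an unadjusted limma p under 0.05 stood 3 lower and 1 higher, against 5.28% and 3.21% of all named genes, and 0 passed the adjustment.

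The glutathione peroxidases Gpx1 to Gpx4 and the thioredoxin reductases are selenoproteins. Beside them were set 19 other genes of selenoproteins and selenium supply, 1 of them under the lower quartile of all 4 arrays. Selenop, the carrier of selenium in plasma, read 16.54 and 15.56 in Ctrl-MI and 15.31 and 14.94 in TTg-MI (-0.92, SE 0.35; -0.43 without Ctrl-MI replicate 1). Selenom, of the endoplasmic reticulum, was lower on both TTg-MI arrays (-0.74, SE 0.27; -0.43 without Ctrl-MI replicate 1). Msrb1, which repairs oxidized methionine, was higher, at 12.07 and 12.22 in Ctrl-MI and 12.59 and 12.94 in TTg-MI (0.63, SE 0.19). Of the 19, 2 were lower and 1 higher at an unadjusted limma p under 0.05, against 5.28% and 3.21% of all named genes. The adjustment was passed by 0, and the median was -0.19 (-0.05 and -0.07 when replicate 2 of Ctrl-MI or of TTg-MI was left out).

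Of 8 methionine sulfoxide reductases, sulfiredoxin and sestrins, Msrb1 and Srxn1 were at that p, against 8.5% of all named genes, and 0 passed the adjustment. Msrb2, the mitochondrial reductase, was higher on both TTg-MI arrays (0.70, SE 0.36; 0.15 without Ctrl-MI replicate 1). Of the 4 metallothioneins, small proteins that bind metals and scavenge radicals, 0 were at that p. Mt1 was within 1 log2 unit of the highest value on 3 arrays, where the scale may flatten. Only its readings are therefore given, at 19.43 and 19.23 in Ctrl-MI and 18.23 and 19.12 in TTg-MI. Mt2 ran from 17.04 on Ctrl-MI replicate 1 to 13.01 on TTg-MI replicate 2 and overlapped between the groups, and Mt4 differed by -0.15 (SE 0.17).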

How the data were processed

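RNA of 4 whole hearts had been hybridised to Clariom S Mouse arrays. The authors deposited 1 table of expression values per probe, and per the submitters' processing notes the software was Expression Console 1.4 of Affymetrix. They were taken as log2 values from their range, as the deposited table names no scale. The sources used here do not say how arrays were normalized and summarized, or on which build. Values were used as deposited, and columns were matched to samples by accession.

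The platform's annotation named 19572 of 22206 probes with 1 symbol, and 2634 were unnamed. Symbols stand for 19505 genes, each by the probe with the highest mean. TTg-MI was compared with Ctrl-MI by limma 3.58.1 in R 4.3.3 (lmFit, eBayes, two-sided) over all probes, with Benjamini-Hochberg adjustment and a threshold of 0.05. The fit has 2 residual and 3.56 prior degrees of freedom. It was tested on simulated data. An exact permutation test could not go below p = 0.333. The number of arrays limits the precision.

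Members and lists were chosen with earlier results of these data known. The rule gave values for core enzymes, for members at an unadjusted p under 0.05, for the 3 widest separated differences of a role and for the 3 smallest p of each further list. Other members, and the atrial and dim marker genes, were added after their values were seen. Promoters came from RefSeq tables (GRCm38.p6).

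Results were recomputed without each array in turn, after quantile normalization, after centring on medians, without dim probes, with a trended robust prior, with a replicate block, and on the mean of a symbol's probes.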

Additional observations from a re-analysis of the deposited data

How the results depend on the processing

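No member was called by limma with Benjamini-Hochberg adjustment except without Ctrl-MI replicate 2, where 4 were (Sod2, Gpx3, Gstk1 and Gstm7), against 1.48% of all named genes. Leaving out single arrays thus gave 0 to 4 called members, 3 to 17 members at an unadjusted p under 0.05 (3 of 66 when TTg-MI replicate 2 was left out, a share near the 3.98% of all named genes there, and 17 without Ctrl-MI replicate 2, where all named genes gave 15.4%) and 42 to 53 members whose groups did not overlap, a count that rises by construction when a group has 1 array. Such fits take the remaining array of a group to vary like the other group's arrays. The median difference of the members stayed between -0.03 and 0.01 under all alternatives run. The replicate numbers were not taken to pair the hearts. The deviations of same-numbered arrays correlated at 0.163 over probes, which cannot exclude that such arrays were handled together. With the replicate block 13 members had an unadjusted limma p under 0.05, against 11.4% of all named genes, and 0 were called. Quantile normalization left 12, median centring 9, the filter on dim probes 8 of 55, the trend and robust prior 11, and the mean of a symbol's probes 11 at that p, each with 0 called. Of 57 named genes of the pathway, the difference moved by more than 1.5 times in 35 and 22 when Ctrl-MI replicates 1 and 2 were left out, and in 19 and 20 when TTg-MI replicates 1 and 2 were. Values under an array's lower quartile were not shown to be above background.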
